A study of Mus musculus with 8 samples.

Results

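Cwc22, Fam171b, Olfr1033, Creb3l1, Dph6, Ptpra and Zfp970 are 7 genes of mouse chromosome 2, of 18501 genes in the expression table. They were picked by symbol because their levels, seen earlier in the same 8 libraries, differed between mutants and wild types in different ways in the 2 mouse lines of the study. The values that chose them are therefore given below as descriptions, with no test. All 7 had a row in the table and all 7 passed the filter on low counts, which kept 14359 genes. The choice had no numeric threshold, so there are no members just inside or outside one.

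The libraries hold RNA of chondrocytes, the cells that make cartilage matrix, from ribs of 10-day-old CD1 mice, an outbred stock. The CG mutants carry a mutation in the seed region of the 3p arm of miR-140, which is a cartilage microRNA, and the CT mutants carry a C>T base change. Both alterations are described by the submitters as overexpressing the 5p arm, and each line has wild types of its own. Each of the 4 groups (CG mutant, CG wild type, CT mutant, CT wild type) has 2 libraries. The labels do not say how many animals gave a library, whether mutants were homozygous or whether wild types were littermates. The cells had been digested out of the cartilage with collagenase and plated before RNA was extracted, so each library is a bulk of cultured cells.

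The 7 genes have unrelated roles. Cwc22 is a spliceosome protein that brings the helicase EIF4A3 to the pre-mRNA, the step that starts the exon junction complex. Creb3l1 is a transcription factor held in the endoplasmic reticulum membrane and released by cleavage, known in bone-forming cells for driving collagen and secretory genes. Dph6 completes diphthamide, a modified histidine of elongation factor 2, and Ptpra is a receptor-type tyrosine phosphatase that activates Src family kinases. Olfr1033 belongs to the odorant receptor genes, Zfp970 to a cluster of zinc finger genes, and Fam171b encodes a membrane protein of little-known function. In mice, Cwc22 also lies in R2d, a segment of chromosome 2 whose copy number is known to vary between strains and within outbred stocks. Neither copy number nor genotype was measured in these libraries.

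What a read count can mean for these genes depends on how much of their sequence is found elsewhere, so the shared stretches of Cwc22 and Zfp970 are shown. In GENCODE M21 (GRCm38), 18.47% of the 50-base words of Cwc22 transcripts were also found in transcripts of other genes. Most of these lay in 7 gene models (Gm13691 and Gm13693 to Gm13698), of which 6 each held 16.49% of the words and Gm13695 held 16.44%. In gene order the 7 models stand 2 to 8 places after Fam171b and 66 to 72 places after Cwc22, and none has a row in the deposited table. A stretch of 344 bases, positions 493 to 836 of the 2724 coding bases of Cwc22, is identical in all 7. Its first 150 bases read as follows.

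Cwc22 coding bases 493 to 642: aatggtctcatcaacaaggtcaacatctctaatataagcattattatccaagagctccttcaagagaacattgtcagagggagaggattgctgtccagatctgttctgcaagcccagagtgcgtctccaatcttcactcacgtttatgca

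Zfp970 shared 49.66% of its 50-base words with 65 other genes. One stretch of 50 bases, positions 621 to 670 of its 1566 coding bases, was found in 43 of them and encodes part of the repeated zinc finger array.

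Zfp970 coding bases 621 to 670: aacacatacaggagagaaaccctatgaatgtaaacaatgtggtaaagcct

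Fam171b and Creb3l1 shared no 50-base word with another gene, and Dph6 and Ptpra shared 0.71% and 1.91%. Olfr1033 shared 5.85%, nearly all of it with Olfr1032. Zfp970 was the only member whose estimated counts were not whole numbers, as happens when reads are divided between similar genes, while the counts of Cwc22 were whole in every library. The gene models like Cwc22 have no row, so its whole counts do not show how shared reads were handled. Whether its counts include or lose such reads was not tested. The Ptpra exons overlap those of the antisense gene 4930473A02Rik over 3.0% of their bases, and Cwc22 overlaps the same-strand model Gm13727 over 2.7%. Strand cannot separate the reads of the Cwc22 pair there. It could separate those of the Ptpra pair, but no source used here says how strand was counted.

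The libraries had similar depth, from 26536868 to 28678641 counts. All 13 chondrocyte markers looked at, among them Col2a1 and Acan, were detected in every library, at 32200 to 61800 CPM (counts scaled to library size) in sum. Hemoglobin genes, markers of red cells, summed to 2.87 to 16.8 CPM in the CG libraries and to 956 to 2500 CPM in the CT libraries. Neutrophil markers summed to 7.98 to 18.9 CPM in CG and 41.9 to 129 CPM in CT libraries, and the 6 macrophage and leukocyte markers to 13.3 to 37.8 and 43.1 to 79.5 CPM. Within the CT line, mutants were below wild types in these sums: hemoglobin genes at 956 to 1300 against 1460 to 2500 CPM, neutrophil markers at 41.9 to 53.0 against 91.2 to 129, and macrophage and leukocyte markers at 43.1 to 51.5 against 62.2 to 79.5. Chondrocyte markers were also lower there, at 41700 to 42100 against 51700 to 61800 CPM. The hemoglobin, neutrophil, and macrophage and leukocyte sums thus differed between the lines. So did endothelial sums, at 8.89 to 28.0 CPM in CG and 43.1 to 83.4 in CT libraries. CT mutants, at 52.3 to 75.0 CPM, lay within the range of CT wild types there. The chondrocyte sums overlapped, as did those of fibroblast and perichondrium (2550 to 3600 and 2620 to 3580 CPM), tendon, osteoblast and muscle markers. The contrast of CT mutants with CT wild types holds the shifts in hemoglobin, neutrophil, macrophage and leukocyte, and chondrocyte sums for every member alike. The part of these sums in the levels below, and in the members' CT effects of either direction, was not tested. Within the CG line the mutant libraries lay far apart. Chondrocyte markers ran from 32200 to 55400 CPM in CG mutants and from 33000 to 34100 in CG wild types. Macrophage and leukocyte markers ran from 13.3 to 37.8 CPM in CG mutants and from 33.3 to 35.5 in CG wild types. The part of this spread in the CG effects was not tested. In bulk RNA, fewer cells of a type and less RNA per cell cannot be told apart.

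The spliceosome gene Cwc22 (Entrez 80744) was low in CG mutants and CT wild types and high in the other groups. CG mutants held 43.3 and 40.0 CPM and CG wild types 138 and 134 CPM. CT mutants held 239 and 143 CPM and CT wild types 46.1 and 53.0 CPM. Low libraries were thus the mutants in one line and the wild types in the other, and mutants and wild types overlapped in neither line. Ordered by level, 4 libraries lay between 40.0 and 53.0 CPM and 4 between 134 and 239 CPM, with a 2.54-fold gap between them that was the widest in the order. The log2 difference of mutants from wild types was -1.71 ± 0.21 (SE) in the CG line and 1.95 ± 0.21 in the CT line, and the first minus the second was -3.66 ± 0.30. In the authors' deposited table the 2 line effects on Cwc22 are log2 values of -1.71 and 1.95.

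Within the CT mutants Cwc22 stood 1.67 times higher in replicate 1 than in replicate 2, with a 95% counting interval of 1.60 to 1.73. The level of replicate 2 was 1.05 times the mean of the CG wild types and 2.90 times that of its own wild types. Replicate 1 was thus above all other libraries and replicate 2 beside the CG wild types. Without CT mutant replicate 1 the CT difference of Cwc22 was 1.54 on the log2 scale, and without replicate 2 it was 2.27. In the other 3 groups the 2 libraries differed by ratios of 1.02 to 1.15. Such a step was not rare: 7.37% of all tested genes had as large a ratio between the same 2 libraries.

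Fam171b (Entrez 241520), which stands 12 tested genes after Cwc22 on the chromosome, had the same directions in both lines. CG mutants held 11.8 and 15.7 CPM and CG wild types 24.0 and 24.1 CPM. CT mutants held 30.7 and 14.7 CPM and CT wild types 4.97 and 4.08 CPM. The CT wild types were the 2 lowest libraries, and CT mutant replicate 2 lay between the 2 CG mutants. The log2 difference of mutants from wild types was -0.81 ± 0.31 (SE) in CG and 2.32 ± 0.33 in CT. The step between CT mutant libraries was 2.09-fold (95% counting interval 1.86 to 2.35), with replicate 1 again the higher, and 3.50% of tested genes had as large a step there. Without that replicate the CT difference was 1.70 on the log2 scale, and without replicate 2 it was 2.76. On deposited FPKM with 1 added it was 1.56, a scale that understates changes of genes at low level.

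**Figure D1:**
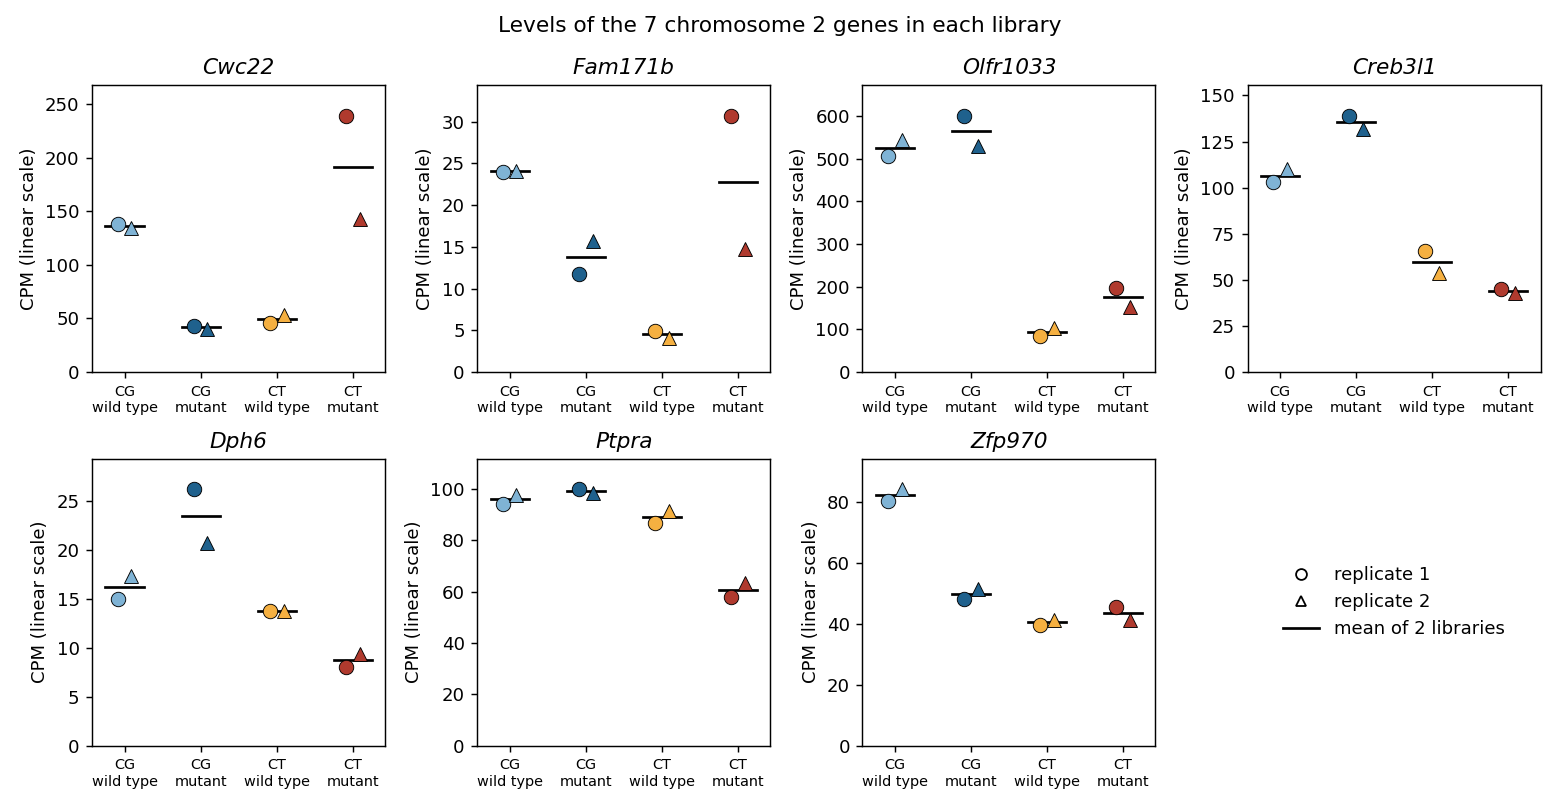
CPM of each of the 7 genes (linear axes starting at 0) in the 4 groups. Circles are replicate 1, triangles replicate 2 and lines the mean of 2 libraries; Cwc22 falls into 4 libraries at 40.0 to 53.0 CPM and 4 at 134 to 239 CPM, and in CT mutants replicate 1 stands above replicate 2 for Cwc22 and Fam171b.

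Creb3l1, Dph6 and Ptpra had the reverse directions, with mutants above wild types in the CG line and below them in the CT line. For the collagen and secretion regulator Creb3l1 (Entrez 26427), CG mutants held 139 and 132 CPM, CG wild types 103 and 110, CT mutants 44.9 and 42.7, and CT wild types 65.5 and 53.8. All 4 CG libraries were above all 4 CT libraries, and the CT mutants were the lowest. The differences of mutants from wild types were 0.35 ± 0.11 in CG and -0.44 ± 0.11 in CT (log2, SE).

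For the diphthamide enzyme Dph6 (Entrez 66632), CG mutants held 26.2 and 20.7 CPM, CG wild types 15.0 and 17.4, CT mutants 8.07 and 9.41, and CT wild types 13.8 and 13.8. The order of groups was that of Creb3l1, with no overlap between any 2 groups on CPM. On deposited FPKM the CG wild types, at 5.62 and 6.47, overlapped the CT wild types, at 5.47 and 5.72. The log2 differences were 0.54 ± 0.16 in CG and -0.66 ± 0.16 in CT, a difference between lines of 1.20 ± 0.22 (SE).

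For the phosphatase Ptpra (Entrez 19262), CG mutants held 99.7 and 98.4 CPM, CG wild types 94.2 and 97.6, CT mutants 57.8 and 63.3, and CT wild types 86.7 and 91.2. Here the CT mutants stood apart, 1.37-fold below the next library, and the other 6 lay within 86.7 to 99.7 CPM. The CT log2 difference was -0.56 ± 0.09, while the CG difference of 0.05 ± 0.08 was smaller than its standard error. The non-overlap of Ptpra in the CG line is thus a matter of a few percent, and on deposited FPKM with 1 added the CG value was -0.0037.

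Olfr1033 and Zfp970 had mutants apart from wild types in a single line on CPM, and in both lines on deposited FPKM. Olfr1033 (Entrez 258571) held 601 and 531 CPM in CG mutants, 506 and 543 in CG wild types, 198 and 152 in CT mutants, and 83.9 and 104 in CT wild types. The CG groups overlapped, and the CT mutants lay above the CT wild types but below every CG library. Its log2 differences were 0.11 ± 0.15 in CG and 0.90 ± 0.16 in CT (SE). The widest gap in its order, 2.56-fold, fell between the lines.

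Zfp970 (Entrez 628308) held 48.1 and 51.4 CPM in CG mutants, 80.2 and 84.1 in CG wild types, 45.6 and 41.3 in CT mutants, and 39.6 and 41.4 in CT wild types. The CG wild types stood alone, 1.56-fold above the next library, and the CT groups overlapped. The differences were -0.72 ± 0.09 in CG and 0.10 ± 0.09 in CT (log2, SE). Because reads of Zfp970 may be divided with similar genes, it was also summed with the 8 genes in the table that held at least 10% of its 50-base words. GENCODE M21 holds 15 such genes, and those without a row could not be added to the sum. The sum was 106 and 115 CPM in CG mutants against 158 and 163 in CG wild types, and the log2 difference of the sums was -0.54 in CG and 0.14 in CT. The CG differences of the 7 similar genes that passed the filter ran from -1.87 for Zfp965 to 3.20 for Gm14288, which held at most 1.11 CPM.

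Counted over the members, 5 of 7 had mutants and wild types that did not overlap in either line, in opposite directions. Over all tested genes that share was 4.65%, and since the members were picked for such patterns nothing is read from their count. On deposited FPKM the count was also 5, with Zfp970 in place of Ptpra, whose CG mutants at 26.0 and 28.4 FPKM lay on both sides of the CG wild types at 27.3 and 27.2. On CPM, mutants and wild types did not overlap for 6 of 7 members in the CG line (45.6% of all tested genes) and for 6 of 7 in the CT line (33.6%). The 2 lines as a whole did not overlap on CPM for 5 of 7 (46.8%), all but Cwc22 and Fam171b. On deposited FPKM the lines overlapped for Dph6, Ptpra and Zfp970 as well, and stayed apart only for Olfr1033 and Creb3l1. In the plot of both effects, Cwc22 and Fam171b are the members farthest from the origin.

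**Figure D2:**
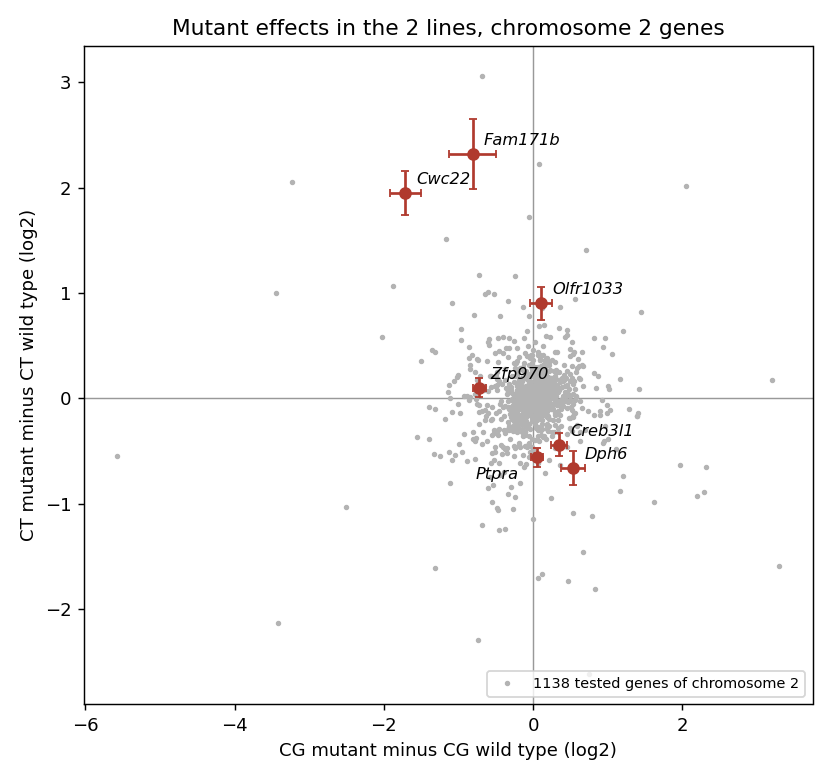
Mutant-minus-wild-type difference (log2) in the CG line on the horizontal axis and in the CT line on the vertical axis, for the 1138 tested genes of chromosome 2 (grey) and the 7 members (red, bars are ± SE). Cwc22 and Fam171b lie upper left at -1.71 and 1.95 and at -0.81 and 2.32, while Creb3l1, Dph6 and Ptpra lie lower right.

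Per length of transcript (FPKM), Olfr1033 was the highest member in every group. In CG wild types the order was Olfr1033 at 202 ± 6.04 FPKM (SD, n = 2), Creb3l1 at 46.8 ± 0.969, Cwc22 at 40.7 ± 1.63, Ptpra at 27.2, Zfp970 at 17.2, Dph6 at 6.04 and Fam171b at 4.42. In CT mutants Cwc22 took the second place, at 63.8 ± 21.8 FPKM, and its libraries of 79.3 and 48.4 FPKM overlapped those of Olfr1033, at 84.8 and 66.1. In the same group Creb3l1 at 22.0 and 21.2 FPKM was above Ptpra at 18.2 and 20.4, a gap smaller than the spread of Ptpra. Fam171b was the lowest member in CT wild types, at 0.91 and 0.79 FPKM.

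Steps between the 2 libraries of a group were looked at for all 28 pairs of a member and a group. A ratio of at least 1.5 was found in 2 of them, Cwc22 and Fam171b in CT mutants, where 10.8% of all tested genes had such a ratio. None was found in CG mutants, CG wild types or CT wild types, where 18.1%, 9.89% and 13.8% of all tested genes had one. The next largest ratios were 1.33 for Fam171b in CG mutants, 1.30 for Olfr1033 in CT mutants and 1.27 for Dph6 in CG mutants. Olfr1033, Zfp970 and Creb3l1 were thus also higher in CT mutant replicate 1, the last 2 by ratios of 1.10 and 1.05, whereas Dph6 and Ptpra were higher there in replicate 2, by ratios of 1.17 and 1.10.

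The Y-linked gene Ddx3y marks the sex of the animals behind a library. It was counted 3512 and 30 times in CT mutants, 3669 and 10 times in CT wild types, 2 and 2511 times in CG wild types and 2231 and 2360 times in CG mutants. The Cwc22 step of CT mutants thus ran with a step in Ddx3y. The same Ddx3y step was present in CT wild types and, with replicates exchanged, in CG wild types, where Cwc22 differed by ratios of 1.15 and 1.02. Of these 2, the CT wild types had the higher Cwc22 level in the library with 10 Ddx3y counts, and the CG wild types in the library with 2. The part of sex in the Cwc22 step was not tested. With 2 libraries a group, sex cannot be told apart from other differences between them. Both CG mutants but only CG wild type replicate 2 had high Ddx3y counts, so sex was not balanced in the CG effect. With a term for Ddx3y the CG effect (log2) was -1.80 for Cwc22, beside -1.71 without it. It was -1.05 beside -0.81 for Fam171b, 0.27 beside 0.35 for Creb3l1, and 0.54 either way for Dph6.

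**Figure D3:**
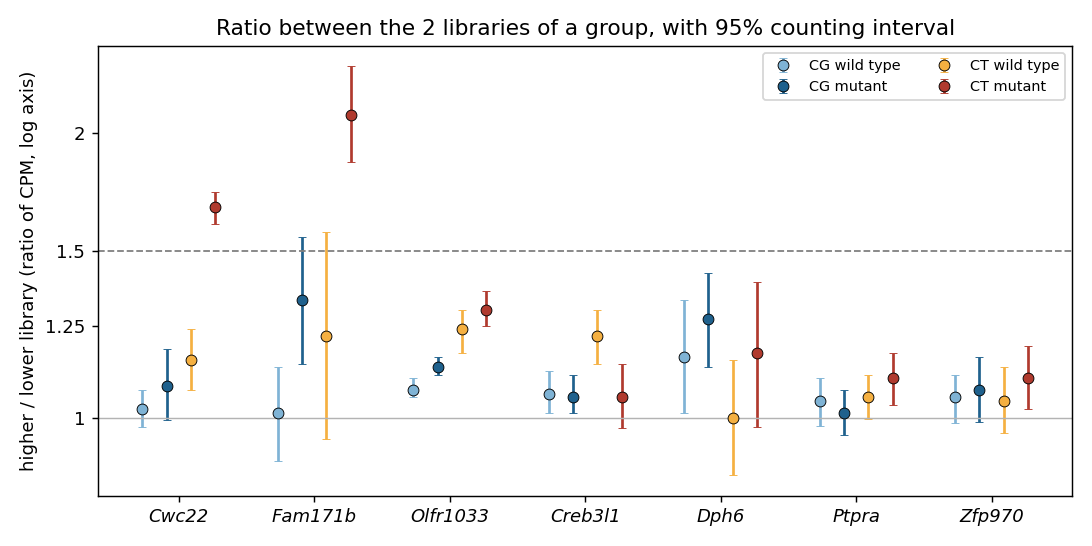
Ratio of the higher to the lower of the 2 libraries of a group (CPM, log axis) for each member and group, with 95% counting intervals. The dashed line is a ratio of 1.5, which Cwc22 (1.67) and Fam171b (2.09) pass in CT mutants.

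The next question was whether the genes beside the members moved with them. The 10 tested genes on each side of each member, 131 genes in all, were taken in the gene order of RefSeq (GRCm38.p6). With edgeR's quasi-likelihood test and adjustment over all tested genes, 0 of 131 passed in any of the 3 contrasts: the mutant effect in CG, in CT, and their difference. Of all tested genes, 0.00696%, 0.00696% and 0.0209% passed. At an unadjusted p under 0.05 the neighbours counted 21 (11.4% of all tested genes), 8 (5.11%) and 13 (4.78%), and DESeq2 called 6 (1.5%), 0 (0.139%) and 1 (0.265%). The opposite, non-overlapping pattern was found in 8 neighbours, or 6.11%, beside 4.65% of all tested genes.

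The genes beside Cwc22 had other levels. Zfp385b, the gene before it, held 191 and 127 CPM in CG mutants and 131 and 124 in CG wild types, with 65.9 and 84.6 CPM in CT mutants and 86.2 and 80.7 in CT wild types. Ube2e3, a ubiquitin-conjugating enzyme gene after it, held 80.7 and 67.1 CPM against 62.8 and 62.1 in CG, and 45.0 and 45.6 against 42.2 and 43.7 in CT. The mutant effects on Ube2e3 were 0.24 ± 0.10 and 0.08 ± 0.10 on the log2 scale, and their difference was 0.17 ± 0.14 (edgeR adjusted p of 0.967), beside -3.66 ± 0.30 for Cwc22. Beside Fam171b, the integrin gene Itgav was 0.32 ± 0.11 higher in CG mutants and 0.44 ± 0.11 higher in CT mutants (log2, SE), neither past the edgeR threshold (adjusted p of 0.343 and 0.958). Calcrl, a peptide hormone receptor gene on its other side, differed by 0.10 ± 0.36 and -0.03 ± 0.37.

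Beside Olfr1033, Ptprj, which like Ptpra encodes a receptor-type phosphatase, held 111 and 117 CPM in CG mutants and 77.0 and 70.6 in CG wild types. In CT it held 71.8 and 80.6 CPM in mutants and 109 and 81.3 in wild types. Its groups did not overlap in either line, in the directions of Creb3l1. The difference between lines was 0.95 ± 0.20 (log2, SE), which missed the edgeR threshold with an adjusted p of 0.707 and was called by DESeq2. Aplnr, on the other side of Olfr1033, was at 0.125 to 2.75 CPM and differed between lines by 1.55 ± 1.08.

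The nearest genes of Creb3l1 were Dgkz and Phf21a, with differences between lines of 0.23 ± 0.13 and 0.17 ± 0.19 on the log2 scale. Those of Dph6, Zfp770 and BC052040, had -0.06 ± 0.18 and -0.05 ± 0.35, and those of Ptpra, Vps16 and Mrps26, -0.03 ± 0.13 and -0.01 ± 0.20. All 6 missed the edgeR threshold for that difference (adjusted p of 0.967 to 0.998).

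Most neighbours of Zfp970 shared its sign in the CG line. Of its 20 neighbours, 2 were above 0 in the CG mutant effect, with a median of -0.34 on the log2 scale beside 0.00 over all tested genes. None passed edgeR, 6 were lower and 0 higher at an unadjusted p under 0.05 (4.87% and 6.5% of all tested genes), and DESeq2 called 3. In the CT effect 13 of 20 were above 0, with a median of 0.12. Gm14322, next to Zfp970, differed by -1.0 ± 0.26 in CG and 0.22 ± 0.26 in CT, and Gm14296, on its other side, by -0.24 ± 0.43 and 1.16 ± 0.43. These genes are part of the same zinc finger cluster, and Gm14296 and Gm14322 held 3.64% and 1.82% of the 50-base words of Zfp970. Whether reads are divided between them was not tested.

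Over the whole of chromosome 2, 84 of 1138 tested genes (7.38%) had opposite and non-overlapping mutant effects in the lines, and 79 of 1131 (6.98%) when the members were left out. The share was 4.41% over the other chromosomes, 583 of 13221 genes, and ran from 2.84% to 5.41% among them. Genes with a log2 difference of at least 0.5 in each line made up 1.58% of chromosome 2 (18 genes, Cwc22, Fam171b and Dph6 among them) and 0.446% of the rest. With the members left out they made up 1.33% of chromosome 2, 15 of 1131 genes. On deposited FPKM the share of chromosome 2 was 5.89% and chromosome 13 was higher, at 7.53%. Without CG mutant replicate 1, chromosome 13 was also higher, at 11.8% against 11.1%, and without CT wild type replicate 2, chromosomes 9 and 2 both stood at 12.9%. Genes of a chromosome share their libraries and are not independent, so these shares carry no test.

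**Figure D4:**
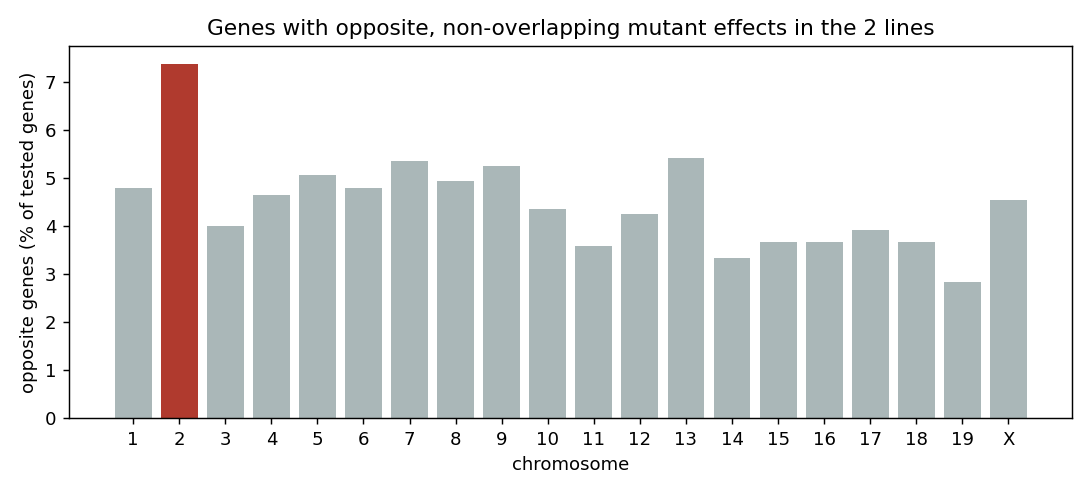
Percent of the tested genes of each chromosome whose mutants and wild types did not overlap in either line, in opposite directions (bars from 0). Chromosome 2 is red, at 7.38%; the others range from 2.84% to 5.41%.

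The pattern was not even along the chromosome. In the order of its 1138 tested genes, Cwc22 stands at place 429, Fam171b at 441, Olfr1033 at 462, Creb3l1 at 494, Dph6 at 577, Ptpra at 731 and Zfp970 at 1085. When the order was divided into 10 blocks of equal size, after the data had been seen, the sixth block held 25 opposite genes of 114 (21.9%), and the other blocks held 2.63% to 7.89%. On deposited FPKM the sixth block held 14.0% and the others up to 8.85%. Leaving out any 1 library gave 23.7% to 31.6% in the sixth block and at most 20.2% in another.

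The sixth block runs from Grem1 to Hdc and contains Dph6, but not Cwc22 or Fam171b. Of its 25 opposite genes, 10 had a CG effect above the CT effect, as Dph6 had, and 15 the reverse, as Cwc22 had. For the difference between lines, 21 of the 114 genes had an unadjusted p under 0.05 (4.78% of all tested genes), 0 passed edgeR and DESeq2 called 2. Besides Dph6, 3 of the 25 differed by at least 0.5 in each line: Gchfr, Eif3j1 and AA467197, named after their values were seen. Gchfr, a regulator of tetrahydrobiopterin synthesis, was near its detection limit, at 0.166 and 0.0382 CPM in CG mutants and 1.20 and 1.08 in CG wild types. Eif3j1 held 146 and 143 CPM in CG mutants but 0.652 and 73.2 in CG wild types, a far larger step within a group than any member had.

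**Figure D5:**
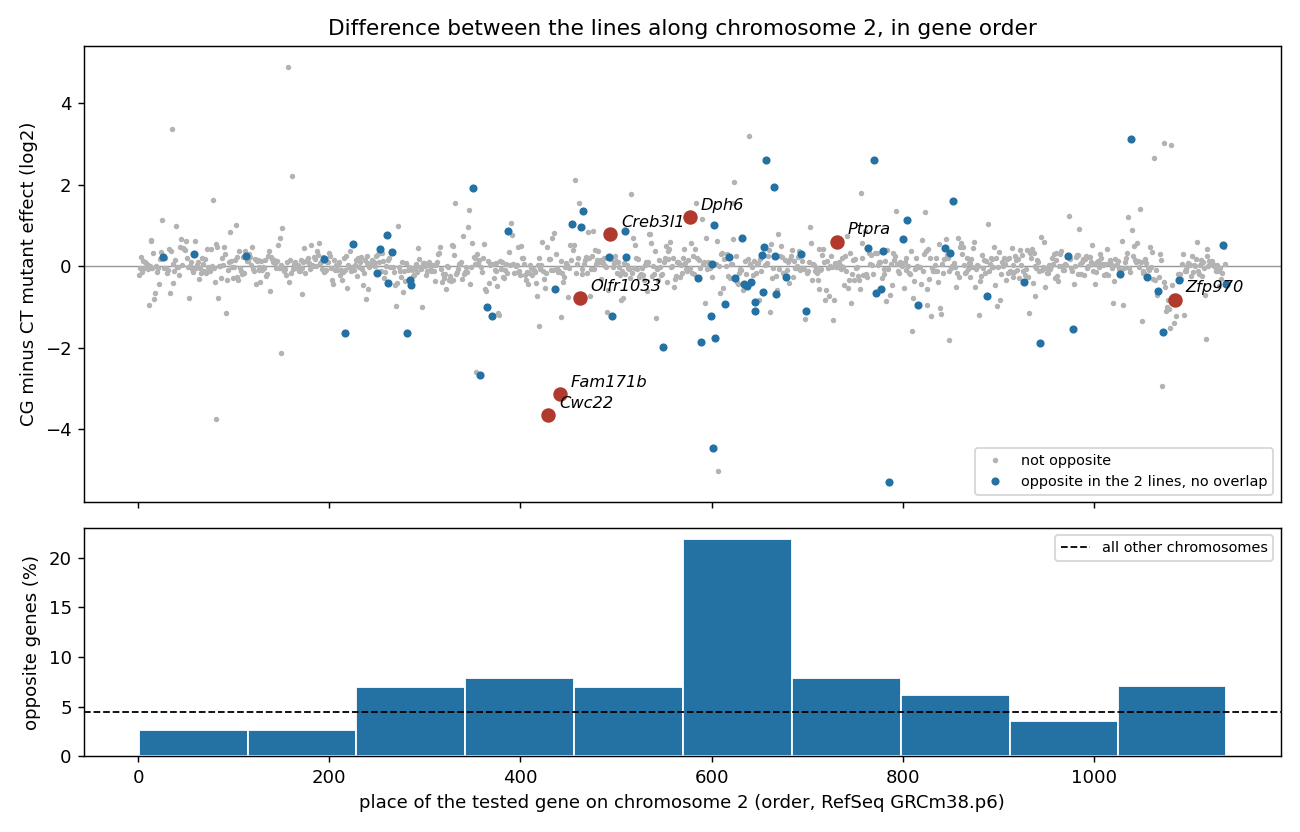
Top, CG minus CT mutant effect (log2) of each tested gene of chromosome 2 by its place in the gene order, with opposite, non-overlapping genes in blue and members in red. Bottom, percent of such genes in 10 equal blocks of that order; the sixth block reaches 21.9% and the dashed line is the 4.41% of the other chromosomes.

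Likeness of pattern was measured as Pearson's r of log2 CPM over the 8 libraries, among the 11667 genes whose mean log2 CPM was 1 or more. Among the nearest to Cwc22 were Eif3j2 and Etv6 at 0.94, Emc1 and Yap1 at 0.90, Trappc13 at 0.89, and Npnt and Zfp874a at 0.88. Farthest were Palld at -0.93, Srd5a3 at -0.92, Scaf1 at -0.89 and 4930503L19Rik at -0.88. Likeness says nothing of size: Yap1, a growth regulator of the Hippo pathway, stayed within 126 to 143 CPM, whereas Eif3j2, a near-identical copy of Eif3j1, was at 1.04 to 1.55 CPM in the 4 libraries low in Cwc22 and at 57.0 to 129 in the other 4. Reads of Eif3j1 and Eif3j2 can be exchanged in counting.

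Among the 50 genes most like Cwc22, 8 lie on chromosome 2 (16.0%), beside 8.08% of all genes compared. By Spearman's rho the count was 5, and by Pearson's r on FPKM it was 6. The same count was 9 for Fam171b, whose nearest was Nckap1 of the same chromosome at 0.93, and 7 each for Olfr1033 and Zfp970. It was 5 for Creb3l1, 3 for Dph6 and 4 for Ptpra. Among the members, r was 0.72 for Cwc22 with Fam171b, 0.92 for Creb3l1 with Dph6, 0.91 for Dph6 with Ptpra and 0.84 for Creb3l1 with Ptpra. Cwc22 with Dph6 gave -0.71 and Cwc22 with Olfr1033 0.03. The points of each correlation are the same 8 libraries in 4 groups, so these values describe group patterns.

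The CG mutation lies in the seed of miR-140-3p, whose RefSeq sequence (GRCm38.p6, chromosome 8) is shown with bases 2 to 8 in capitals, for reading against the members' 3′ UTRs.

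mmu-miR-140-3p: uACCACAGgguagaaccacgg

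The match to these bases, CTGTGGT, was searched on the sense strand of the annotated 3′ UTRs of the members and was present in 1 of 7, against 19.27% of 13846 genes with a 3′ UTR. That gene was Ptpra, with 2 matches, at bases 1546 and 1562 of a 3′ UTR of 2656 bases, shown with the match in capitals.

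Ptpra 3′ UTR, base 1546: cgccacctCTGTGGTttt
Ptpra 3′ UTR, base 1562: ttccacctCTGTGGTttc

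Ptpra was the member with the smallest CG difference, 0.05 ± 0.08 on the log2 scale, and its CT difference was -0.56 ± 0.09. Only the RefSeq seed was searched, not the mutated one, and the part of these matches in the levels of Ptpra was not tested. For miR-140-5p only the name is given.

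Genes that work with the members were followed in 6 lists, 75 tested genes in all. With edgeR, 0 of 75 passed in the CG, CT or difference contrast. At an unadjusted p under 0.05 there were 4, 2 and 2, where all tested genes gave 11.4%, 5.11% and 4.78%. DESeq2 called 1, 0 and 1, beside 1.5%, 0.139% and 0.265% of all tested genes. For the 29 partners of Cwc22 in the exon junction complex and the late spliceosome, the median mutant effect was -0.01 in CG and -0.01 in CT (log2), beside medians of 0.00 over all tested genes. The partners with the smallest p in the difference were the helicase gene Aqr, with 126 ± 2.39 CPM (SD, n = 2) for CG mutants against 119 ± 2.34 for CG wild types, and Rbm8a, a core subunit of the junction complex, at 55.4 ± 2.63 and 50.7 ± 3.21. Neither passed, with an edgeR adjusted p of 0.967 for each difference.

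The diphthamide genes beside Dph6 had medians of 0.15 in CG and -0.10 in CT over 7 genes, none called. Dph5, the methylase of that pathway, differed by 0.15 ± 0.12 and -0.14 ± 0.12, and Dnajc24, a co-chaperone of its first step, by 0.27 ± 0.21 and -0.21 ± 0.21 (log2, SE). The 16 tested genes listed with Creb3l1, which include its proteases, its kin and the collagen I genes, had medians of 0.08 and -0.03. Of these, the retrieval receptor gene Kdelr3 differed by 0.21 ± 0.10 in CG and held 70.8 ± 0.318 CPM in CT mutants and 70.9 ± 2.55 in CT wild types, and Creb3l4 was near 1 CPM.

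Among the 14 receptor phosphatase and Src family genes, Ptprj was described above. Ptpre, the closest relative of Ptpra, held 41.9 ± 7.92 CPM in CG mutants and 54.4 ± 1.88 in CG wild types, with 70.6 ± 1.48 and 58.4 ± 8.23 in CT. Its difference between lines, -0.65 ± 0.20, did not pass the edgeR test (adjusted p of 0.922). The FAM171 relatives Fam171a1 and Fam171a2 differed between lines by -0.21 ± 0.19 and 0.14 ± 0.42, against -3.13 ± 0.46 for Fam171b. Of the 7 genes of KRAB repression, the machinery that zinc finger proteins of this kind recruit, Morc3 and Setdb1 had the smallest p-values, with differences between lines of -0.29 ± 0.13 and -0.12 ± 0.13.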

How the data were processed

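Per the labels' protocols and the submitters' processing notes, RNA of plated rib chondrocytes was sequenced on DNBSEQ and aligned with HISAT2 2.0.4 to mm9. No counter and no annotation is named in the sources used here. Per the file headers the authors deposited an estimated count and an FPKM value for each gene and library. Rounding to whole numbers changed 2282 to 2518 of these counts in a library. The authors' deposited table of comparisons holds 2655 genes, 3 of the 7 members among them, each with a log2 ratio and a q-value.

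CPM are counts scaled to TMM-adjusted library size. One edgeR 4.0.16 quasi-likelihood fit (R 4.3.3) held 4 group means, 8 libraries, 14359 genes and 4 residual degrees of freedom, with Benjamini-Hochberg adjustment at 0.05. It was checked on simulated counts. P-values measure the spread between libraries, which may be technical. Alternatives used DESeq2 1.42.0, limma 3.58.1, other filters and scalings, further terms and each library left out. Counting intervals (95%) cover counting error only.

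The members and the lists of genes were chosen with earlier results of these data known. Named are all members, the nearest tested gene on each side, the 8 most and 4 least like Cwc22, 2 genes of each list by smallest p, and Ddx3y, except 1 gene that is not reported here. A rule for zinc finger copies by protein identity could not be applied, and shared 50-base words of GENCODE M21 transcripts were used instead, a choice made after the files were seen. Gene order came from RefSeq GRCm38.p6, in which 18381 gene IDs were found. Because the builds differ, no coordinates are given. Symbols of 24 genes turned into dates were restored from their IDs.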

Additional observations from a re-analysis of the deposited data

Results flagged for a closer look

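For 5 members all mutants lay on one side of their wild types in one line and on the other side in the other line. The CG minus CT mutant effect was -3.66 for Cwc22, -3.13 for Fam171b, 0.79 for Creb3l1, 1.20 for Dph6 and 0.60 for Ptpra on the log2 scale. On deposited FPKM Ptpra did not have this pattern and Zfp970 did. No p-value is given for these differences, because the genes were chosen for them. The members were part of the fit, and the counts and shares over all tested genes include them.

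Outside the members, the difference between the lines passed edgeR's quasi-likelihood test for Eif3j2 and Palld. Eif3j2 had a difference of -11.62 ± 0.57 (log2, SE) with an adjusted p of 0.00053, and an adjusted p between 1.99e-06 and 0.0275 with any 1 library left out. Reads of Eif3j2 and its near-identical copy Eif3j1 can be exchanged in counting, and Eif3j1 differed the other way, by 2.60 ± 1.61. Eif3j1 was at 143 to 183 CPM in CG mutants and CT wild types, which were low in Eif3j2. It was at 0.652 to 118 CPM in CG wild types and CT mutants. How much of the Eif3j2 difference is an exchange between the copies was not tested. Palld, an actin-associated protein gene, had 2.52 ± 0.23 with an adjusted p of 0.0239. Leaving out a CT library ended the call: the adjusted p was 0.127 and 0.177 without CT mutant 1 and 2, and 0.113 and 0.164 without CT wild type 1 and 2, and the log2 difference was then 2.48 to 2.56. With limma on log2 FPKM the adjusted p was 0.0512 with 0.1 added and 0.0496 with 1 added. Over the 8 libraries Eif3j2 is among the genes most like Cwc22 and Palld the least like it.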

How the results depend on the processing

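Of 329 values of the members under the alternatives, 325 moved by less than the spread between replicates, with the direction kept. Of the other 4, the CG effect on Cwc22 was -1.80 with a term for Ddx3y, and the difference of Fam171b was -2.27 on FPKM with 1 added. The CG effect on Ptpra was -0.0037 and -0.0039 on FPKM with 1 and 0.1 added. Genes called in the CG contrast, 1 in the reported fit, numbered 216 with DESeq2, 13 with no filter, 4 and 3 with limma on FPKM plus 1 and plus 0.1, and 2 with the Ddx3y term. In the CT contrast, 1 became 20 with DESeq2, 2 with no filter, and 3 with limma on FPKM plus 1 or with the CT libraries alone. In the difference, 3 became 38 with DESeq2 and 5 with no filter. With 1 library left out the counts ran from 1 to 522 in CG, 0 to 4 in CT and 1 to 97 in the difference, and the highest CG and difference counts came without CG mutant replicate 2. Among the neighbours, 0 calls became 6 with DESeq2 and 0 to 6 with 1 library left out, and in the lists 1 with DESeq2 and 0 to 3, each highest without that same library. The cause was not tested.

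Genes with opposite, non-overlapping effects numbered 667. With at least 0.5 in each line they numbered 77 over all chromosomes. They then made up 1.58% of the tested genes of chromosome 2, or 1.33% with the members left out. With 1 library left out, an alternative chosen after seeing the data, they numbered 1049 to 2041, or 9.75% to 17.4% of chromosome 2, since fewer libraries overlap less. Steps of at least 2 were found for 1 member, and 5 of the 50 genes most like Cwc22 by Spearman's rho lay on chromosome 2.

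The replicate numbers of the labels were not taken as pairs, since the labels do not say what a number marks and deviations from group means of same-numbered libraries correlated at -0.0892 to 0.248. The highest value was that of CT mutants with CT wild types, where replicate 1 held 3512 and 3669 counts of Ddx3y and replicate 2 held 30 and 10, so in the CT line the number runs with sex. With a replicate block 3 genes were called in CG, 1 in CT and 3 in the difference. With 2 libraries a group, differences of the size of Ptpra in CG cannot be resolved. Members below 10 CPM, such as Fam171b in CT wild types at 141 and 120 counts, carry more counting error.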
